A study of Mus musculus with 3 samples.

Results

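The 9 genes described here encode parts of the complement system: the 3 chains of C1q (C1qa, C1qb, C1qc), its proteases C1ra and C1s1, the components C4b and C3, the inhibitor Serping1 and the receptor C3ar1. They were taken by symbol, and all 9 were found in each of 3 single-cell tables of mouse heart interstitial cells, which list 17126 genes between them. Hearts had been minced and digested with collagenase II, cardiomyocytes had been spun out at low speed, and the remaining cells had been sorted by flow cytometry on Lin28 and cKit at the cell surface. The groups were Lin28-/cKit-, Lin28+/cKit- and Lin28+/cKit+, with 1 droplet 3′ library per group. The 3 groups share the tissue, the digestion and the sort. The labels used here give no strain, age, sex, genotype, treatment or number of animals. The groups are named by this sort and not by transcripts, and transcripts of Lin28a and Lin28b were not analysed here. With 1 library per group no difference between groups could be tested, and every interval below is a 95% interval that covers counting error only.

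Complement is a cascade of plasma and tissue proteins that tags cells and debris for uptake. C1q, built from A, B and C chains, binds antibody or altered surfaces, the attached C1r and C1s proteases then cut C4 and C2, and the resulting enzyme cuts C3 into C3b, which coats the target, and C3a, which is sensed by the receptor C3aR. Liver cells supply most plasma complement, whereas tissue macrophages are a known main source of C1q, and fibroblasts of many organs make C1r, C1s, C3 and the C1 inhibitor.

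The 3 C1q genes sit side by side on chromosome 4 of mm10, all on the minus strand, in the order C1qb (136880129 to 136886187), C1qc (136889804 to 136893065) and C1qa (136895917 to 136898803), within 18.7 kb. C1ra (chromosome 6, 124512405 to 124523443, plus strand) and C1s1 (124530345 to 124542359, minus strand) lie within 29955 bases of each other. C3ar1 lies on the same chromosome (122847138 to 122856161), C3 (57203970 to 57228136) and C4b (34728380 to 34743882) on chromosome 17 and Serping1 (84765387 to 84775444) on chromosome 2, all on the minus strand. C1ra and C1s1 have near copies, C1rb and C1s2, and C4b has C4a, so reads shared between copies make the counts of these 3 members uncertain.

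Promoter windows from 250 bases before to 50 after a gene's start were given by RefSeq (GRCm38.p6) for 6 of the 9 genes, C1qb, C1qc, C3ar1, C3, C1ra and C1s1. Those of C1qb and C1qc are printed because the UMIs of these neighbours lay chiefly in the same cell class below. That of C3ar1 is printed because it followed this class from another chromosome, and that of C3 because it followed another class. Each is on the minus strand, written 5′ to 3′. Capitals mark matches, on either strand, to GAGGAA, a motif bound by the macrophage factor PU.1 (C1qb, C1qc), to TGAGTCA, the AP-1 motif (C3ar1), or to TTGCNNAA, a C/EBP motif (C3).
C1qb chr4:136886151-136886450: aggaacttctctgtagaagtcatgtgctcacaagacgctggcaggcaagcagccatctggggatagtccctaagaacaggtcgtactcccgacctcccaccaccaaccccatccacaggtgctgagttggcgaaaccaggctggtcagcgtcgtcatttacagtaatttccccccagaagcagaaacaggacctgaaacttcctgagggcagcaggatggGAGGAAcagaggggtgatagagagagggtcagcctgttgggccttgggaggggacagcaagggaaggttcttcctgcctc
C1qc chr4:136892865-136893164: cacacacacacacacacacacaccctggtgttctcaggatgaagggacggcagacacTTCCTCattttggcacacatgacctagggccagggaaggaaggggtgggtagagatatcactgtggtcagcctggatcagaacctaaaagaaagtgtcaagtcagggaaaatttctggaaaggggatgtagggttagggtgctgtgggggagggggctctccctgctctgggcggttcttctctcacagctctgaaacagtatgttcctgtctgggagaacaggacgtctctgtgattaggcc
C3ar1 chr6:122856108-122856407: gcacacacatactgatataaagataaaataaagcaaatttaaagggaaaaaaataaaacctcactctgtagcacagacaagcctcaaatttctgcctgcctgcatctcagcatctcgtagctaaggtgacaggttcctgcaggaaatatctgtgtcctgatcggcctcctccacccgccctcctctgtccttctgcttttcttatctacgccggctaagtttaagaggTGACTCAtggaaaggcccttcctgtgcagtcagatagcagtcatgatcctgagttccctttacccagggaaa
C3 chr17:57228087-57228386: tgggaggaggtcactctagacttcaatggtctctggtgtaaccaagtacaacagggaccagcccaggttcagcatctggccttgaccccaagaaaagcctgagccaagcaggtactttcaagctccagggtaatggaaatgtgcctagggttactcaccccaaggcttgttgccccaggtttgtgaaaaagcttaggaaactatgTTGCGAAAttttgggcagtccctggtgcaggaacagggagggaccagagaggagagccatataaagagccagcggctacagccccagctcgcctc

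GAGGAA was found in 28.3% of the 32851 promoter windows of the table, TTGCNNAA in 10.8% and TGAGTCA in 5.20%. In C1qb the capitals begin 30 bases before the start, in C1qc 193 bases before it, where the window holds the complement TTCCTC. The match of C3ar1 begins 22 bases before the start and that of C3 45 bases before it. C1ra also held GAGGAA and TTGCNNAA, and C1s1 TTGCNNAA. C1ra alone of the 6 held TTCNNNGAA, a STAT motif found in 8.30% of all windows. TGCTGAC, a MAF motif (4.67% of windows), and the longer motifs of the interferon-stimulated element (3.44%) and of NF-kB (1.47%) were not among the letters of any of these windows. A match is a description of the sequence, and binding was not measured.

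The tables held 3976 Lin28-/cKit-, 681 Lin28+/cKit- and 1176 Lin28+/cKit+ cells, with 34031955, 7401174 and 10400648 UMIs (unique molecular identifiers, the molecule tags that are counted in place of reads) and medians of 8630, 9628 and 8068.5 UMIs per cell. Cells were clustered without the complement genes, and clusters were named from other marker genes. Fibroblast-like cells numbered 2766, 34 and 12 in the 3 libraries in that order, endothelial-like cells 921, 242 and 429, and macrophage-like cells 21, 326 and 645. The sorted groups therefore held different cells: macrophage-like cells made up 0.528%, 47.9% and 54.8%. In the libraries in which each class is described below, UMIs were found for 10 of 10 of its markers, except in the 21 Lin28-/cKit- macrophage-like cells (9 of 10). Pooled cells also held UMIs of other classes' markers, so this alone does not separate the classes. The numbers of cell barcodes in common between libraries were 0, 8 and 1. Levels are UMIs per 1000000 UMIs of the same cells (CPM). The summed fibroblast, endothelial and macrophage markers stood at 29879, 438 and 101 CPM in Lin28-/cKit- fibroblast-like cells. In Lin28-/cKit- endothelial-like cells they stood at 2736, 23679 and 39.2 CPM. In Lin28+/cKit- macrophage-like cells they stood at 12.3, 473 and 6744 CPM. A gene counted as higher or lower between 2 groups of cells where the ratio of levels was at least 1.5, its interval left out 1, and both groups together held at least 20 UMIs.

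The 9 genes split between 2 kinds of cell. C1qa, C1qb, C1qc and C3ar1 were genes of macrophage-like cells, which held between 95.9% and 97.5% of their UMIs in both Lin28+ libraries. C1ra, C1s1, C3 and Serping1 were genes of fibroblast-like cells in the Lin28-/cKit- library, where these cells held between 95.05% and 96.5% of their UMIs. In the Lin28+ libraries, which held 34 and 12 fibroblast-like cells, their UMIs were few and more spread: fibroblast-like cells held 43.5% of C3 in the Lin28+/cKit- library, beside 44.3% in 6 mesothelial-like cells, and 18.6% of C1ra in the Lin28+/cKit+ library, beside 53.5% in macrophage-like cells. C4b was spread over both kinds of cell: 87.5% of its UMIs were in fibroblast-like cells of the Lin28-/cKit- library, and 87.2% and 90.2% were in macrophage-like cells of the Lin28+/cKit- and Lin28+/cKit+ libraries. Macrophage-like cells held most C1q also where they were few: 21 cells gave 91.3% of the C1qa UMIs of the Lin28-/cKit- library.

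**Figure D1:**
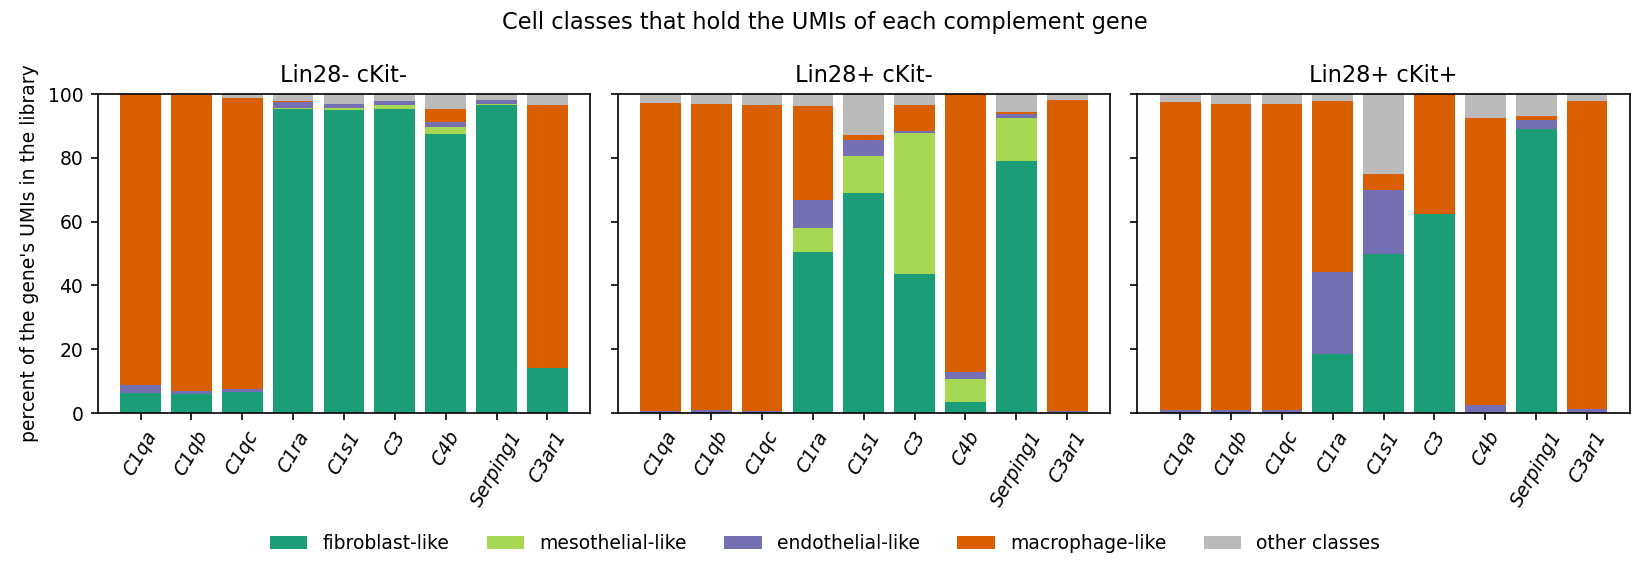
Share of each gene's UMIs (percent) that lay in each class of cells, for the 9 complement genes in each of the 3 libraries, as stacked bars. The C1q genes and C3ar1 are filled by macrophage-like cells in every library, and C4b changes from fibroblast-like cells (87.5%) in the Lin28-/cKit- library to macrophage-like cells in the others.

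Within a library the classes were set side by side. In the Lin28-/cKit- library 7 members had enough UMIs in fibroblast-like and endothelial-like cells. Of these, 5 were higher in fibroblast-like cells (C1ra, C1s1, C3, C4b, Serping1), beside 21.3% of all genes tested, and 1, C1qa, was lower (24.3% were lower). C1qa rested on 29 UMIs in fibroblast-like and 11 in endothelial-like cells, at 1.03 and 2.61 CPM, beside 3761 CPM in macrophage-like cells of that library. The ratios of the 5 lay between 7.39 (C1ra) and 13.5 (Serping1). In the Lin28+/cKit- library 6 of 7 measured members were higher in macrophage-like than in endothelial-like cells (20% of all genes), and in the Lin28+/cKit+ library 5 of 6 (19.5%). None was lower in either (34.6% and 38.3% of all genes). C1qa stood 59.98-fold and 35.3-fold higher, C3ar1 84.98-fold and 30.3-fold, and C4b 18.9-fold and 14.3-fold. The median log2 ratio of the measured members was 3.32 in the fibroblast-like comparison, beside -0.07 over all genes, and 5.90 and 5.03 in the macrophage-like comparisons, beside -0.32 and -0.40. The members were chosen with earlier results of these data known, so these counts and medians describe the list and do not test it.

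**Figure D2:**
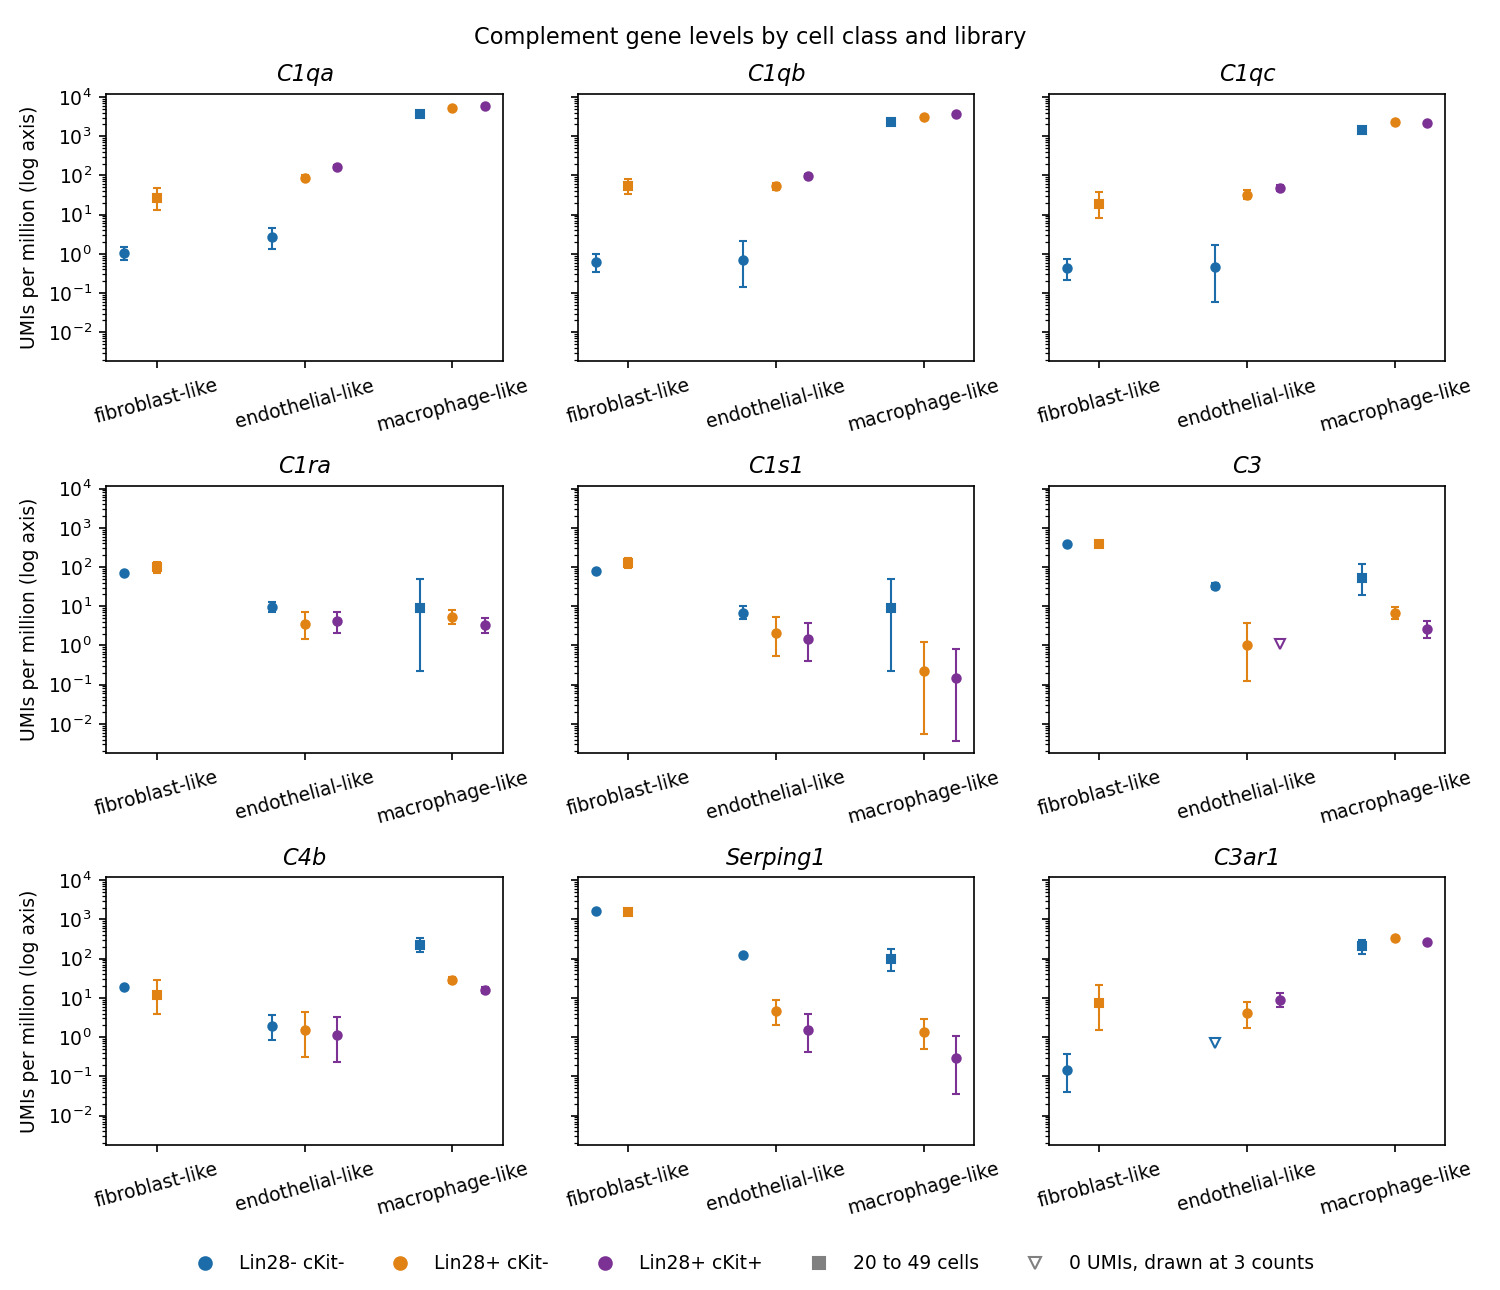
Level of each of the 9 genes (CPM, log axis) in macrophage-like, fibroblast-like and endothelial-like cells of each library, with 95% counting intervals. Squares stand for groups of 20 to 49 cells, and open triangles mark groups with 0 UMIs at the level of 3 UMIs. C1qa, C1qb, C1qc and C3ar1 are highest in macrophage-like cells of every library, and Serping1, C1s1 and C1ra in fibroblast-like cells of the 2 libraries with enough of them to be drawn.

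C1qa, the A chain, was the most frequent of the 9 transcripts in macrophage-like cells by UMIs. It stood at 5260 CPM (5193 to 5328) in Lin28+/cKit- and 5783 (5727 to 5840) in Lin28+/cKit+ macrophage-like cells, and at 3761 in the 21 such cells of the Lin28-/cKit- library. C1qb stood at 3176, 3625 and 2362 CPM and C1qc at 2262, 2116 and 1480, in the same order. The order C1qa, C1qb, C1qc thus held in all 3 libraries. Because the reads come from 3′ ends and the level depends on how well each end is captured, this is an order of UMIs and not of chains made.

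The balance of the 3 chains was much alike across libraries. C1qa made up 49.2%, 50.2% and 49.5% of the C1q UMIs of macrophage-like cells in the Lin28+/cKit-, Lin28+/cKit+ and Lin28-/cKit- libraries. C1qb made up 29.7%, 31.5% and 31.1%, and C1qc 21.1%, 18.4% and 19.5%. Between both Lin28+ libraries, however, the chains did not all lie on the same side. The Lin28+/cKit+ level was 1.10 (1.08 to 1.12) times the Lin28+/cKit- level for C1qa and 1.14 (1.12 to 1.17) for C1qb, but 0.935 (0.912 to 0.959) for C1qc. None of these reached 1.5-fold.

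C1q was found in nearly every macrophage-like cell. C1qa had a UMI in 98.5% of Lin28+/cKit- and 99.2% of Lin28+/cKit+ macrophage-like cells, at median depths of 12513 and 9565 UMIs, and all 3 chains were detected together in 293 of 326 and 619 of 645 cells. Only 2 and 1 cells had none. For comparison, endothelial-like cells had a C1qa UMI in 48.3% and 60.8% of cells at median depths of 7694.5 and 5590 UMIs. After thinning to 1000 UMIs the shares were 10.9% and 15.6%. Here and below, thinned shares leave out cells with fewer than 1000 UMIs, so they rest on a deeper set of cells. The median macrophage-like cell held 49.3 and 55.7 C1qa UMIs per 10000. Across macrophage-like cells of a library the 3 chains had pairwise Pearson correlations between 0.454 and 0.507, given as a description of cells that share 1 library (326 and 645 cells), whereas their correlations with C3ar1 lay between 0.030 and 0.235.

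Macrophage-like cells fell into 3 clusters. Cluster 4 was led by Retnla, Ccl24 and F13a1 and held 183 Lin28+/cKit- and 284 Lin28+/cKit+ cells. Cluster 8 was led by Mmp13 and the cytokine genes Il1b and Ccl4 and held 82 and 311. Cluster 13, led by Cbr2, Retnla and Folr2, held 61 and 50 shallow cells with medians of 879 and 856.5 UMIs. The make-up therefore differed between the libraries, since cluster 4 took 56.1% of the Lin28+/cKit- and 44.0% of the Lin28+/cKit+ macrophage-like cells and cluster 8 took 25.2% and 48.2%.

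The C1q genes hardly separated these clusters. C1qa stood at 5409 and 6071 CPM in cluster 4 and at 4887 and 5453 in cluster 8 of the Lin28+/cKit- and Lin28+/cKit+ libraries, a ratio of 1.11 in both. The ratio was 1.05 in both for C1qb, and 1.01 and 0.993 for C1qc. The higher C1qa and lower C1qc of the Lin28+/cKit+ library was also seen within cluster 4, with ratios of 1.12 and 0.928 between the libraries. Cluster 13 was lower, at 3186 and 4481 CPM of C1qa. Within cluster 4, cells with and without a UMI of Timd4, a phosphatidylserine receptor of resident macrophages, had 5419 against 5361 CPM of C1qa in the Lin28+/cKit- library and 6099 against 5995 in the Lin28+/cKit+ library.

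**Figure D3:**
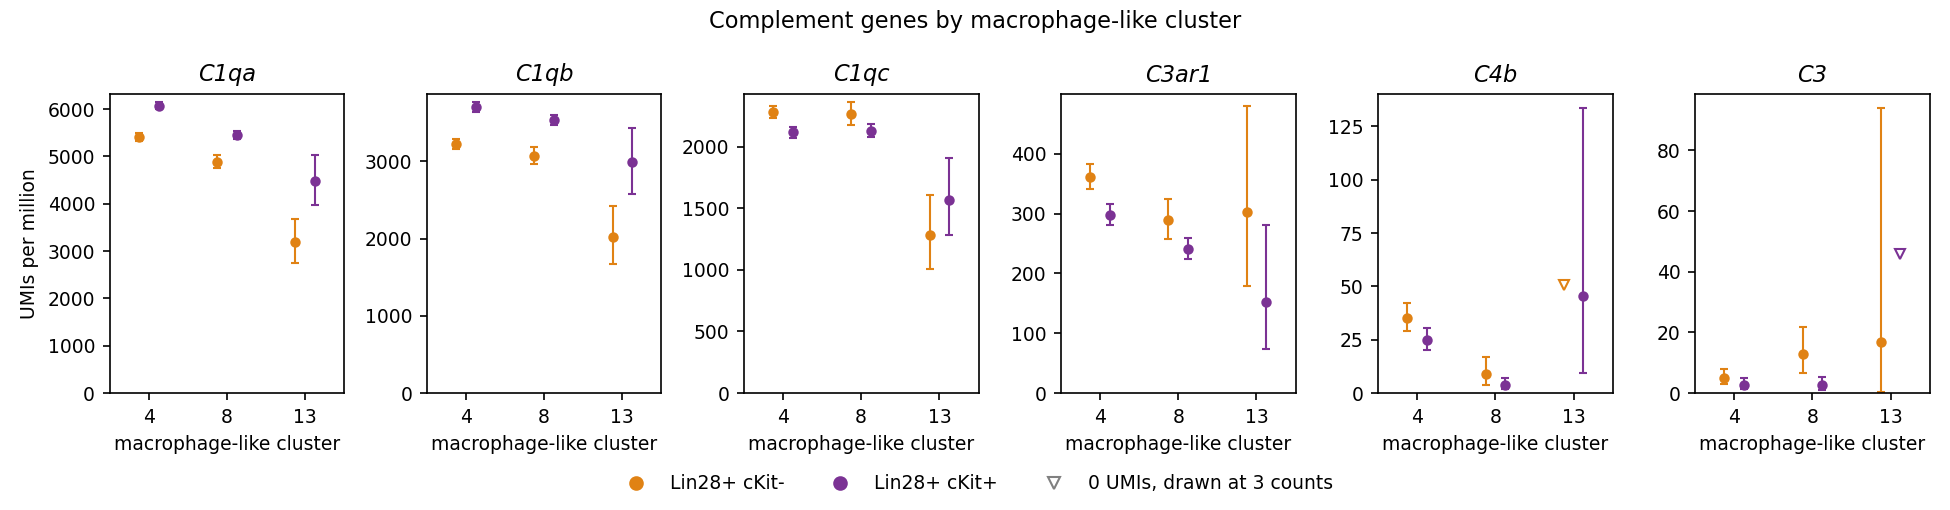
Levels of the complement genes (CPM) in macrophage-like clusters 4, 8 and 13 of both Lin28+ libraries, with 95% counting intervals. The C1q genes lie close together across clusters 4 and 8, whereas C4b is higher in cluster 4 (35.3 and 25.1 CPM) than in cluster 8 (8.82 and 3.95 CPM).

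C3ar1, the receptor for the C3a fragment, followed the C1q genes at a lower level. It stood at 345 CPM (328 to 362) in Lin28+/cKit- and 272 (260 to 284) in Lin28+/cKit+ macrophage-like cells, and at 205 CPM in the 21 cells of the Lin28-/cKit- library. The Lin28+/cKit+ level was 0.789 (0.737 to 0.844) times the Lin28+/cKit- level, short of 1.5-fold. C3ar1 was found in 78.5% and 80.5% of these cells, and in 24.5% and 22.3% after thinning to 1000 UMIs, against 3.31% and 4.90% of endothelial-like cells before thinning. In cluster 4 it stood at 362 and 298 CPM and in cluster 8 at 290 and 241, with ratios of 1.25 (1.10 to 1.42) and 1.24 (1.13 to 1.36). Macrophage-like cells therefore carried the receptor, while its ligand's gene C3 was chiefly in fibroblast-like cells of the Lin28-/cKit- library. Of the 379 Lin28+/cKit- and 48 Lin28+/cKit+ UMIs of C3, fibroblast-like cells held 43.5% and 62.5%, and macrophage-like cells 8.18% and 37.5%.

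C1q UMIs in endothelial-like cells differed between the libraries. C1qa stood at 2.61 CPM in Lin28-/cKit-, 87.7 in Lin28+/cKit- and 164 in Lin28+/cKit+ endothelial-like cells, C1qb at 0.712, 53.2 and 98.7, and C1qc at 0.475, 32.4 and 47.1. The Lin28+/cKit+ level was 1.87 (1.56 to 2.24) times the Lin28+/cKit- level for C1qa, 1.85 (1.47 to 2.35) for C1qb, 1.45 (1.07 to 1.99) for C1qc and 2.21 (0.961 to 5.69) for C3ar1. C1qa and C1qb were higher, 2 of the 4 members measured, and no member was lower, beside 3.45% and 3.46% of all genes. Set against macrophage-like cells of the same library, the 4 genes reached between 1.18% (C3ar1) and 1.68% (C1qb) of their level in Lin28+/cKit- and between 2.23% (C1qc) and 3.30% (C3ar1) in Lin28+/cKit+ endothelial-like cells. The 10 macrophage markers lay at medians of 1.80% (1.29% to 3.27%) and 2.98% (2.02% to 4.51%) there, none at 0, and their summed levels at 1.93% and 2.93%. The proportions of the 3 chains in endothelial-like cells were 50.6%, 30.7% and 18.7% in the Lin28+/cKit- and 53.0%, 31.8% and 15.2% in the Lin28+/cKit+ library. The part that macrophage transcripts outside their cells have in these levels was not tested.

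**Figure D4:**
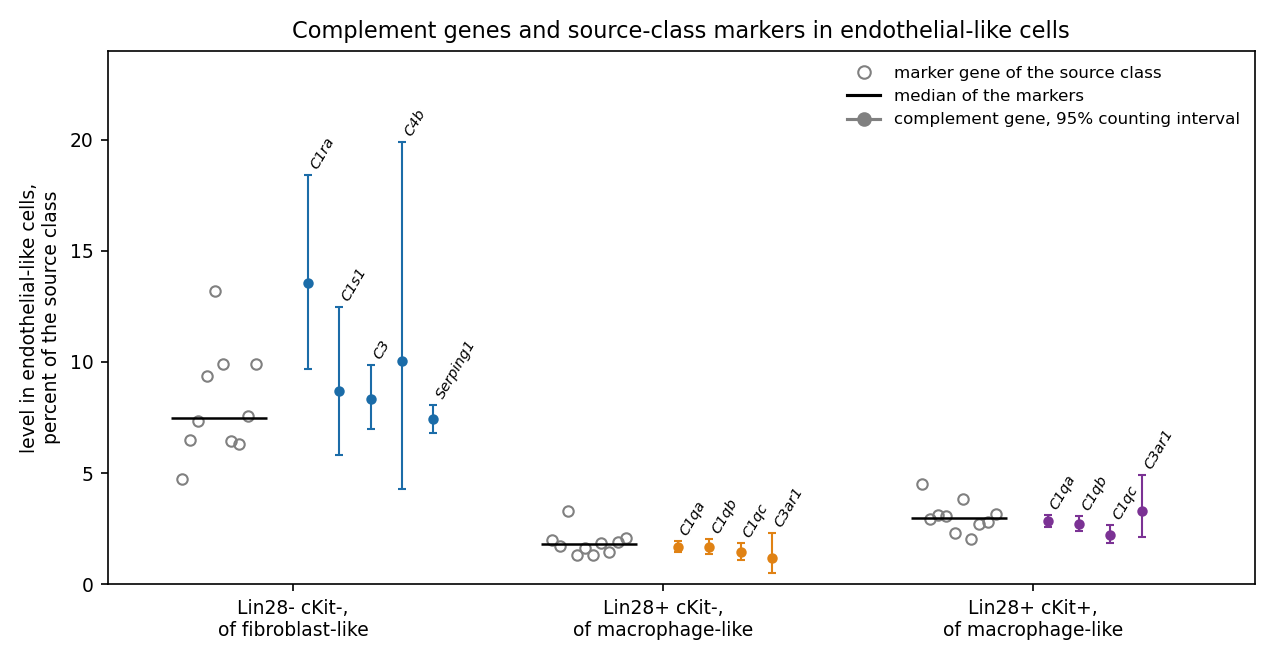
Level in endothelial-like cells as a percentage of the level in the class that holds most of the gene in the same library (fibroblast-like cells for Lin28-/cKit-, macrophage-like cells for both Lin28+ libraries). Coloured points are complement genes with 95% counting intervals, and grey open points are the 10 markers of the source class with their median as a line. The complement genes lie within the spread of the markers or next to it, with C1ra highest at 13.5%.

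The proteases C1ra and C1s1 were fibroblast genes of modest level. C1ra, which cuts C1s, stood at 71.9 CPM (68.8 to 75.1) in the 2766 Lin28-/cKit- fibroblast-like cells, and C1s1, which cuts C4 and C2, at 79.4. In the 34 Lin28+/cKit- fibroblast-like cells they stood at 98.4 and 127 CPM. C1ra had a UMI in 47.9% and C1s1 in 49.02% of the Lin28-/cKit- fibroblast-like cells, both together in 762 cells (27.5%), at a median depth of 10122.5 UMIs. Endothelial-like cells of that library had a UMI in 3.37% and 2.93% of cells at a median of 4080 UMIs. After thinning to 1000 UMIs the shares were 7.33% and 7.96% in fibroblast-like and 0.548% and 0.438% in endothelial-like cells. Their correlation across those cells was 0.161, and both genes are sparse per cell.

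C1ra was not wholly tied to C1s1 outside fibroblasts. Macrophage-like cells held 24 and 23 UMIs of C1ra in the Lin28+/cKit- and Lin28+/cKit+ libraries (5.36 and 3.34 CPM), beside 1 and 1 UMIs of C1s1, whereas Lin28-/cKit- fibroblast-like cells held 2018 of C1ra and 2228 of C1s1. Endothelial cluster 11, led by Cytl1, H19 and Plvap, held C1ra at 26.4 CPM in the Lin28+/cKit+ library, 8 UMIs in 6 of 32 cells, beside 1 UMI of C1s1, 0 of C3 and 1 of Serping1. The other 397 endothelial-like cells of that library held 3 UMIs of C1ra, or 1.26 CPM. In the Lin28-/cKit- library cluster 11 stood at 30.3 CPM (27 UMIs in 108 cells) against 4.22 in the other endothelial-like cells, but also held 55 UMIs of C3 and 259 of Serping1. In the 82 of those 108 cells in which endothelial markers led, C1ra stood at 16.2 CPM. Cluster 11 was singled out after its values were seen, and its counts are small.

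C3, the component on which all routes of activation meet, stood at 388 CPM (381 to 396) in Lin28-/cKit- and at 396 in the 34 Lin28+/cKit- fibroblast-like cells. It varied widely between cells, with a median of 1.43 UMIs per 10000, a 90th percentile of 10.6, and no UMI in 37.9% of Lin28-/cKit- fibroblast-like cells. After thinning to 1000 UMIs, C3 was found in 24.1% of them and in 2.63% of endothelial-like cells of that library. Macrophage-like cells held little: 6.92 CPM in the Lin28+/cKit- and 2.61 in the Lin28+/cKit+ library, a ratio of 0.378 (0.199 to 0.696), in 15 and 17 cells. A single Lin28+/cKit- cell gave 7 of these UMIs, and without the top cell of each library the levels were 5.38 and 2.33 CPM.

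The highest C3 of any named class was in mesothelial-like cells, which line the heart's surface, although there were only 4 in the Lin28-/cKit- and 6 in the Lin28+/cKit- library. They held 2909 (2473 to 3399) and 9361 (7999 to 10889) CPM. In the Lin28+/cKit- library these 6 cells gave 168 of the 379 C3 UMIs, 76 of them in 1 cell, and the 34 fibroblast-like cells gave 165. The same cells held Serping1 at 3939 and 6241 CPM, C4b at 258 and 613, C1ra at 202 and 334 and C1s1 at 202 and 502. All 5 levels were above those of fibroblast-like cells in the same library. So few cells do not carry a comparison.

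C4b, whose product is cut by C1s and forms part of the enzyme that cuts C3, was a low-level gene of both main sources. It stood at 19.0 CPM in Lin28-/cKit- fibroblast-like cells, where 11.03% of cells had a UMI against 0.760% of endothelial-like cells, at 28.8 (24.1 to 34.2) in Lin28+/cKit- macrophage-like cells and at 16.0 (13.1 to 19.3) in Lin28+/cKit+ macrophage-like cells. The ratio between both Lin28+ libraries was 0.554 (0.426 to 0.721). Leaving out the cell with most C4b in each (11 and 7 UMIs) gave 26.6 and 15.003 CPM. In the 21 Lin28-/cKit- macrophage-like cells C4b stood at 223 CPM, but 23 of its 25 UMIs came from 1 cell, and the rest gave 22.4. Outside the main sources, 11 Schwann-like cells of the Lin28-/cKit- library held 15 C4b UMIs among 47323 UMIs of all genes. The 1 such cell of the Lin28+/cKit+ library held 4 and that of the Lin28+/cKit- library 0, too few cells for a comparison.

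Among the 9 genes C4b differed most between macrophage clusters. It stood at 35.3 CPM in cluster 4 and 8.82 in cluster 8 of the Lin28+/cKit- library (120 and 9 UMIs), and at 25.1 and 3.95 in the Lin28+/cKit+ library (95 and 12 UMIs). The ratios were 4.01 (2.04 to 8.97) and 6.35 (3.47 to 12.7). C4b was the 1 member higher in cluster 4 among 7 measured in the Lin28+/cKit- library (9.63% of all genes) and among 6 in the Lin28+/cKit+ library (9.41%). C3 was the 1 member lower in cluster 4, in the Lin28+/cKit- library alone, with a ratio of 0.393 (0.180 to 0.879). Of all genes 2.93% were lower there, and 2.58% in the Lin28+/cKit+ library, where no member was. Within cluster 4 the Lin28+/cKit+ level of C4b was 0.711 (0.537 to 0.938) times the Lin28+/cKit- level, and no member was higher or lower there (1.53% and 3.08% of all genes were). Cells of cluster 4 with Timd4 held 38.7 CPM (31.8 to 46.7) against 18.9 (9.45 to 33.9) in those without it in the Lin28+/cKit- library, but 26.1 against 22.5 in the Lin28+/cKit+ library.

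Serping1, the inhibitor that removes C1r and C1s from C1, was the leading complement gene of fibroblast-like cells. It stood at 1663 CPM in Lin28-/cKit- and 1573 in Lin28+/cKit- fibroblast-like cells, and at 1233 in the 12 Lin28+/cKit+ ones. It had a UMI in 99.2% of Lin28-/cKit- fibroblast-like cells, and in 78.3% after thinning to 1000 UMIs, and its 10th and 90th percentiles were 7.81 and 27.4 UMIs per 10000 around a median of 15.8. Endothelial-like cells of that library had a UMI in 26.8%, and in 8.11% after thinning. Macrophage-like cells of the Lin28+/cKit- and Lin28+/cKit+ libraries held 6 and 2 UMIs. Across Lin28-/cKit- fibroblast-like cells Serping1 had a correlation of 0.289 with C3 and 0.232 with C4b, both described within 1 library.

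Fibroblast-like cells of the Lin28-/cKit- library fell into 6 clusters, and the secreted components varied among them more than the inhibitor. The highest cluster stood above the lowest by 9.41-fold for C4b, 4.51-fold for C3, 2.12-fold for C1s1, 1.76-fold for C1ra and 1.51-fold for Serping1. Cluster 7, led by Inmt, Cxcl14 and Fgf10 (422 cells), was the highest for all 5: C3 stood at 793 CPM, C4b at 45.3, Serping1 at 2096, C1s1 at 99.8 and C1ra at 87.8. Against the other fibroblast-like cells, C3 was higher by 2.59-fold (2.49 to 2.70) and C4b by 3.33-fold (2.79 to 3.97), 2 of 6 measured members beside 2.84% of all genes, and no member was lower (6.11% of all genes), while Serping1 (1.33), C1s1 (1.33) and C1ra (1.28) stayed under 1.5-fold. When cells were clustered more finely, cluster 7 split into 242 cells with C3 at 735 and C4b at 21.8 CPM, and 158 cells led by Igfbp3, Inmt and Tmem176b with C3 at 908 and C4b at 94.4. C4b therefore marked the smaller piece (ratio 4.33, 3.21 to 5.90), whereas C3 was high in both (1.24).

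Other fibroblast clusters were low in different members. Cluster 3, led by Dnm3os, Gadd45a and Thbs1 (518 cells), was lower in C3 (176 CPM, ratio 0.399) and C4b (7.38 CPM, ratio 0.338), beside 5.0% of all genes. Cluster 6, led by Cd248, Efhd1 and Tmem100 (436 cells), was lower in C1ra (49.9 CPM, ratio 0.647), C1s1 (47.2 CPM, ratio 0.542) and C4b (4.81 CPM, ratio 0.215), beside 6.53% of all genes, yet held C3 at 436 CPM. No member was higher there (5.42%). C1ra fell just short of 1.5-fold there, at a log2 ratio of -0.56 (from -0.63), when complement genes were kept for clustering. Cluster 2, led by Hsd11b1, Thbs2 and Ppm1n (540 cells), was lower in C3 alone (253 CPM, ratio 0.606; 3.62% of all genes) and higher in none (2.28%). In clusters 1 (678 cells) and 10 (172 cells) no member was higher (4.6% and 5.48% of all genes were) or lower (4.54% and 4.02%). No cluster was lower in C3 and in the proteases together.

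**Figure D5:**
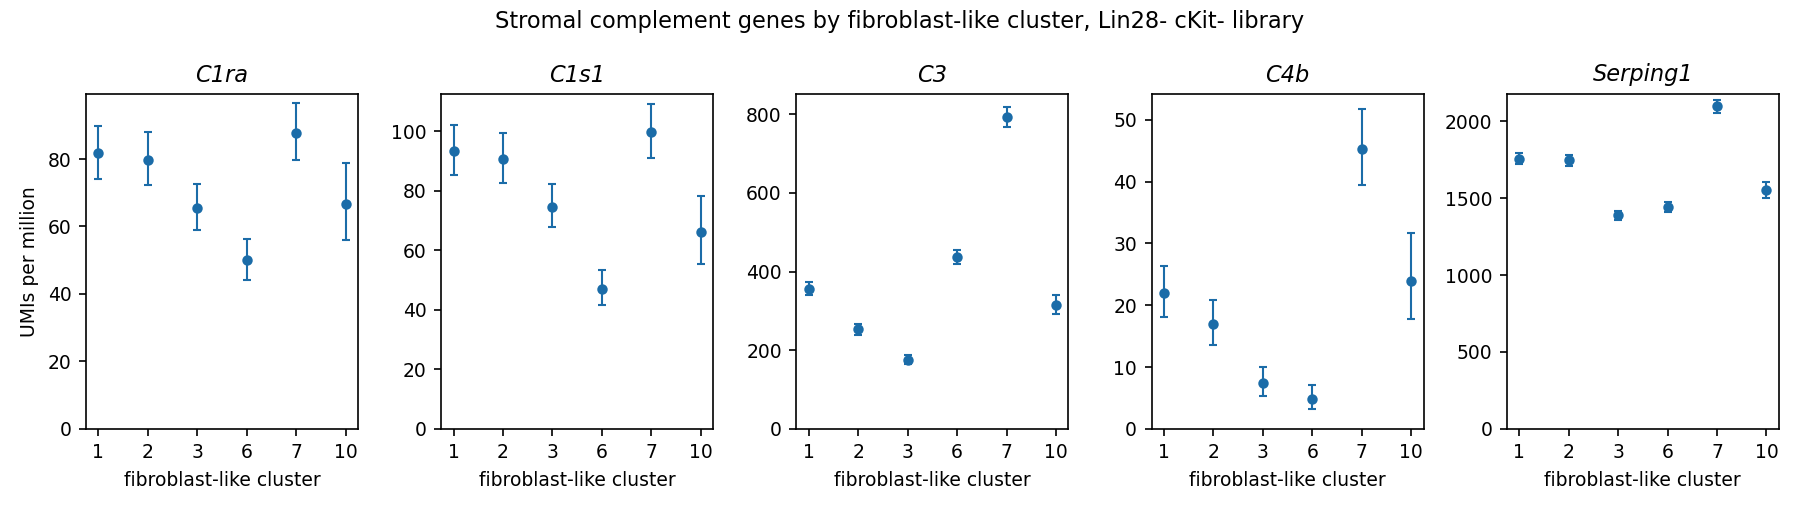
Levels of C1ra, C1s1, C3, C4b and Serping1 (CPM) in the 6 fibroblast-like clusters of the Lin28-/cKit- library, with 95% counting intervals. Cluster 7 is the highest for each gene, cluster 6 is low in C1ra, C1s1 and C4b with C3 at 436 CPM, and Serping1 varies least.

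Between whole libraries the genes moved by the class that held them. C1qa stood at 13.6, 3305 and 3976 CPM in the Lin28-/cKit-, Lin28+/cKit- and Lin28+/cKit+ libraries, C1qb at 8.40, 2003 and 2501, C1qc at 5.35, 1425 and 1457 and C3ar1 at 0.823, 214 and 187. In the same order Serping1 stood at 1421, 112 and 13.9 CPM, C3 at 336, 51.2 and 4.62, C1s1 at 68.9, 10.4 and 1.92 and C1ra at 62.3, 10.9 and 4.13. C4b, with both sources, stood at 17.9, 19.997 and 11.7. From sums over a library alone, fewer cells of a type and less RNA per cell cannot be told apart, and the numbers of cells of each class, given above, moved with these levels. Within fibroblast-like cells the level of Serping1, and within macrophage-like cells that of C1qa, both given above, differed far less between libraries than these sums. The part of each in the sums was not tested.

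Against the Lin28-/cKit- library 4 members were higher in the Lin28+/cKit- library (22.1% of all genes) and 4 lower (25.4%), with ratios from 238 (C1qb) to 267 (C1qc) and from 0.079 (Serping1) to 0.176 (C1ra). C4b was neither, with a ratio of 1.12 (0.929 to 1.34). In the Lin28+/cKit+ library the same 4 were higher (20.5%) and the other 5 lower (29.0%), C4b with a ratio of 0.657 (0.536 to 0.799), which no longer counted as lower with a mean over cells (log2 ratio -0.37) or TMM scaling (-0.50). With a mean over cells the log2 ratio of C1qa between the Lin28+/cKit- and Lin28-/cKit- libraries was 6.52, from 7.93, and that of C3 -1.50, from -2.71. Between both Lin28+ libraries none was higher (1.77%) and 5 were lower in Lin28+/cKit+ cells (8.02%): C1ra (0.378), C1s1 (0.185), C3 (0.090), C4b (0.587) and Serping1 (0.124). The median log2 ratios of the 9 genes were 0.16, -0.61 and -0.77 in these 3 comparisons, beside -0.08, -0.18 and -0.10 over all genes. Each of these medians is the log2 ratio of C4b, the middle gene, and does not show the split of the other members given above. The 3 comparisons share libraries and are not independent of each other.

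Within macrophage-like cells the C1q genes and C3ar1 did not reach 1.5-fold between both Lin28+ libraries. Of 7 measured members none was higher (1.55% of all genes) and 2, C3 and C4b, were lower in the Lin28+/cKit+ library (4.33%), with a median log2 ratio of -0.34 beside -0.09 over all genes. With a mean over cells C4b no longer counted as lower (log2 ratio -0.51). Within cluster 8 alone C3 was lower (ratio 0.207, 0.074 to 0.538; 4.59% of all genes were) and none was higher (2.46%).

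Within endothelial-like cells the members of both sources differed between the Lin28- and Lin28+ libraries. In the Lin28+/cKit- library 3 of 7 measured members, the C1q genes, were higher than in the Lin28-/cKit- library (4.03% of all genes) and 4, C1ra, C1s1, C3 and Serping1, were lower (7.24%). Serping1 stood at 123, 4.56 and 1.49 CPM in Lin28-/cKit-, Lin28+/cKit- and Lin28+/cKit+ endothelial-like cells, C3 at 32.3, 1.01 and 0 (0 UMIs, where 3 would be 1.12 CPM), C1ra at 9.74, 3.55 and 4.11 and C1s1 at 6.89, 2.03 and 1.49. C1ra no longer counted as lower without the cells led by markers of another class, with log2 ratios of -0.73 (from -1.46) in the Lin28+/cKit- and -0.50 (from -1.24) in the Lin28+/cKit+ library. In the Lin28+/cKit+ library 4 of 8 were higher (2.39%), the C1q genes and C3ar1, and the same 4 were lower (6.6%). Compared with Lin28-/cKit- fibroblast-like cells, endothelial-like cells of that library held 7.41% of the Serping1 level, 8.32% of C3, 8.67% of C1s1, 10.0% of C4b and 13.5% (9.68% to 18.4%) of C1ra, beside a median of 7.47% (4.73% to 13.2%) for 10 fibroblast markers, none at 0, and 9.16% for their sum. The part of fibroblast transcripts in these levels was not tested.

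Cluster 0, led by Car4, Rgcc and C1qtnf9, held most of the endothelial-like cells of both Lin28+ libraries, with 382, 153 and 250 cells in the Lin28-/cKit-, Lin28+/cKit- and Lin28+/cKit+ libraries. C1qa stood there at 4.52, 89.9 and 168 CPM and Serping1 at 78.8, 4.77 and 0.661. Against the Lin28-/cKit- library 3 of 5 measured members, the C1q genes, were higher and 2, C3 and Serping1, lower in the Lin28+/cKit- library (3.4% and 3.91% of all genes), and likewise in the Lin28+/cKit+ library (2.27% and 3.79%). Between both Lin28+ libraries C1qa and C1qb were higher in Lin28+/cKit+ cells, 2 of 4 measured (2.45%), and none was lower (2.99%).

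Of 46 other complement genes listed by role, 36 were in the tables, and C4a, Mbl1, Mbl2, Fcnb, Cfd, Hc, C8a, C8b, C9 and C4bp were not analysed here. Among recognition and activation genes, 4 of 7 measured were higher in fibroblast-like than in endothelial-like cells of the Lin28-/cKit- library, C1rb, C1rl, C1s2 and Colec12, and none was lower, beside 21.3% and 24.3% of all genes. C1rb, the near copy of C1ra, stood at 53.6 CPM. Fcna, a ficolin that binds sugars on microbes, was a macrophage gene at 100.07 CPM in the Lin28+/cKit- and 52.1 in the Lin28+/cKit+ library, the 1 of 5 measured genes of the list that was lower, beside 4.33% of all genes. Like C4b it was higher in cluster 4 than in cluster 8, by 14.5-fold and 21.2-fold, as was the scavenger collectin Colec12, by 5.30-fold and 4.24-fold. Within cluster 4 alone no measured gene of the list was lower in Lin28+/cKit+ cells (3.08% of all genes were). Within cluster 8 alone none was lower either (4.59%).

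Among the regulators, Cd55 and Csmd1 were higher in fibroblast-like than in endothelial-like cells of the Lin28-/cKit- library, and Cr1l, Cd59a and Clu were lower. The membrane regulators Cr1l (174, 163 and 151 CPM) and Cd59a (143, 110 and 120), which shield cells from C3b deposits and from the lytic pore, were found in endothelial-like cells of all 3 libraries. Of the terminal pathway C7 was measured, at 72.5 CPM in fibroblast-like cells, and it was 1.93-fold higher in cluster 7 and 1.86-fold higher in cluster 10, where no member was higher, and lower in cluster 3 (ratio 0.420). Cfp, properdin, which steadies the C3-cutting enzyme of the alternative pathway, was a macrophage gene (144 and 104 CPM), higher in cluster 4 by 2.45-fold and 2.99-fold.

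Of the receptors and C1q-binding genes, 7 of 9 measured were higher in macrophage-like than in endothelial-like cells of the Lin28+/cKit- library and 6 of 9 in the Lin28+/cKit+ library, beside 20% and 19.5% of all genes. Lrp1, an uptake receptor, and Calr, calreticulin, were also higher in fibroblast-like than in endothelial-like cells of the Lin28-/cKit- library. They stood at 652 and 891 CPM in those fibroblast-like cells, against 159 and 738 in Lin28+/cKit- and 129 and 762 in Lin28+/cKit+ macrophage-like cells. C5ar1, the receptor for C5a, stood at 471 and 421 CPM, above C3ar1 in both. Cd93 was the 1 receptor gene of the list lower in macrophage-like cells, and stood at 471, 459 and 429 CPM in endothelial-like cells of the 3 libraries. Vsig4, a receptor for C3b, was lower in Lin28+/cKit+ than in Lin28+/cKit- macrophage-like cells (40.7 against 76.0 CPM). It was also lower within cluster 8 (4.59% of all genes were) but did not count as lower within cluster 4 (3.08%). Vsig4 was named after its values were seen.

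Over 21 groups of a cluster and a library with at least 50 cells, the genes with levels most like those of C1qa and of C1qb were Mrc1, Trem2 and F13a1 (Pearson's r of log2 CPM between 0.98 and 0.99). Those most like C1qc were Mrc1, Trem2 and Lilra5, and those most like C3ar1 were Lilra5, Adgre1 and Fcrls. Serping1 lay closest to the matrix genes Ogn, Col1a2 and Crispld2. C1ra lay closest to Lefty1, Akr1b8 and Olfml3, C1s1 to Il17d and Bicc1, and C3 to Gsn, Gpx3 and Pla1a (0.94 to 0.97). C4b had no near match, with Oxct1 at 0.87, Egr2 at 0.85 and Abcd2 at 0.84. The groups share libraries and depth, so these values are descriptions only.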

How the data were processed

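Single-cell 3′ libraries of 3 sorted groups of mouse heart cells were read from 3 deposited tables. The submitters' processing notes name Cell Ranger, the genome build mm10 and Seurat 4.0.2. The deposited values are natural log values, ln(1 + x) with x a gene's UMIs scaled to 10000 per cell, as tested on the tables: undoing the log gave cells that sum to 10000 and whole numbers within 0.01 for all values once divided by the smallest value of a cell. These recovered UMIs were used throughout, where the plan had assumed deposited counts. The labels used here do not state the filters on cells before deposit.

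UMIs were summed per class or cluster and library, with exact Poisson intervals for levels, exact conditional binomial intervals for ratios and exact Clopper-Pearson intervals for shares, all at 95% (scipy 1.17.1). Cells came from Python 3.11.15 with scanpy 1.11.5: 2000 variable genes without Kit and the complement genes, 30 principal components, 15 neighbours (scikit-learn 1.9.0), Leiden clusters (leidenalg 0.10.2) at resolution 1. Of 22 clusters 4 stayed unnamed, and 2 cells with over 10% haemoglobin UMIs were set aside. Classes were compared between libraries from 50 cells and clusters described from 20 cells. For log2 ratios and their medians a group under 3 UMIs was set at 3 UMIs. Scrublet marked 24 of 5833 cells (0.411%), which does not count as having worked, and no doublet was removed. The calls were also run on simulated counts that held counting error only. Such counts have no spread between libraries, so they cannot show how the calls fare with 1 library per group.

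All 9 members were named in each comparison. Of each other complement list the genes of at least 50 CPM in a class of at least 50 cells, at most 4, were named, with the genes called beside them, and for each member the 3 genes most alike among those with at least 100 UMIs. Of the genes that this rule names, 2 are not reported here. The members, lists and markers were chosen with earlier results of these data known. Gene positions are from GENCODE vM21 on mm10. Alternatives were other scalings, filters, resolutions and cell sets.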

Additional observations from a re-analysis of the deposited data

Results flagged for a closer look

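C1qc lay on opposite sides of equality between the Lin28+/cKit+ and Lin28+/cKit- libraries in 2 cell classes: the ratio was 1.45 (1.07 to 1.99) in endothelial-like cells and 0.935 (0.912 to 0.959) in macrophage-like cells. With 1 library per group the difference was not tested. Beside the endothelial-like ratio, the median of 10 macrophage markers there was 1.80% of the macrophage-like level in the Lin28+/cKit- and 2.98% in the Lin28+/cKit+ library.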

How the results depend on the processing

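Of 176 recomputed counts of members higher or lower, 171 stayed within 1.5 times the main count and 5 did not. With 100 UMIs needed in a pair, the members lower in endothelial-like cells fell from 4 to 2 in the Lin28+/cKit- and from 4 to 2 in the Lin28+/cKit+ library against Lin28-/cKit-, those lower in Lin28+/cKit+ macrophage-like cells from 2 to 1, and those lower in fibroblast-like than in endothelial-like cells from 1 to 0, since fewer members were measured. With a mean over cells the macrophage-like count also went from 2 to 1, C4b standing at a log2 ratio of -0.51 instead of -0.85. Of 691 recomputed log2 ratios of single members 72 moved beyond the counting interval of the main value. None that counted as higher or lower changed sign, but 7 of ratios that counted as neither did, all of C1qc, C1qb or C1ra. Of these, C1ra in macrophage-like against endothelial-like cells of the Lin28+/cKit+ library went from -0.30 to 0.17 with TMM scaling and to 1.34 and 1.43 at resolutions 0.5 and 2. In 13 recomputations a member that counted as higher or lower became neither, and in 2 the opposite happened. Endothelial-like C1ra was no longer lower in Lin28+/cKit- than in Lin28-/cKit- cells at resolution 0.5 (-0.41), at resolution 2 (-0.75), without cells led by another class's markers (-0.73) or with a mean over cells (-0.93), from -1.46, and no longer lower in Lin28+/cKit+ cells without cells led by another class's markers (-0.50), without the cells of highest Scrublet score (-0.58) or with a mean over cells (-0.81), from -1.24. C1ra of fibroblast cluster 6 stood at -0.56, from -0.63, with complement genes kept for clustering. Whole-library C4b was no longer lower in Lin28+/cKit+ than in Lin28-/cKit- cells with TMM scaling (-0.50), with a mean over cells (-0.37) or without the cells of highest Scrublet score (-0.54), from -0.61. The cluster 7 log2 ratio of C4b fell from 1.73 to 0.10 at resolution 2. There cluster 7 split into 242 cells with C4b at 21.8 CPM and 158 cells with C4b at 94.4 CPM. The causes of these changes were not tested. Between macrophage clusters 4 and 8, C4b kept log2 ratios from 1.65 to 2.44 in the Lin28+/cKit- and from 2.31 to 3.14 in the Lin28+/cKit+ library. Alternatives for clusters were chosen after seeing the data, and at resolution 0.5 fibroblast clusters 3 and 7 had no counterpart. Clusterings without separate counterparts gave no contrast. With the main setting included, fibroblast cluster 6 had 6 settings, cluster 7 had 5 and cluster 3 had 4. Macrophage clusters 4 against 8 had 5, so their range of C4b does not cover every alternative clustering. No paired analysis was possible because each group has 1 library, and for that reason no replicate could be left out.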
